A study of Homo sapiens with 33 samples.

Results

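ECI2, SERPINE2, ABAT, RIN2, HEPACAM2 and ADD3 are 6 genes that were named beforehand for strong early rises, without an interferon link, in Karpas422 cells given EED226. The platform annotation assigned 13 probe sets to them alone, of the 54613 probe sets that are not array controls, and 19775 genes had at least 1 such probe set. A probe set is a group of short array probes read out as 1 value. ECI2, listed as a single gene under its current symbol, and HEPACAM2 had 1 probe set each, SERPINE2 and RIN2 had 2 each, ABAT had 3 and ADD3 had 4. The choice rested on EED226 against DMSO at days 1 to 6, so those differences are described here with their standard errors and without a test. EED226 against DMSO at 8 h, and DMSO against 0 h, were not used by the choice and were tested.

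Karpas422 is a human diffuse large B cell lymphoma line, and the series title calls it an EZH2 mutant. Cells received EED226 at 5 µM, an allosteric inhibitor that binds the EED subunit of the Polycomb repressive complex PRC2, or DMSO, the solvent, and were collected after 8 h or after 1, 2, 3 or 6 days. A group collected at 0 h completes the 11 groups of 3 arrays, 33 arrays in all, and the labels do not say how the 0 h cells were handled. Replicates are biological triplicates per the design text, which calls the compound an EZH2 inhibitor; the treatment protocol lists EI1 as well, but each treated title names EED226 alone. All groups are the same cell line, which carries its EZH2 mutation in the DMSO and 0 h arrays too. Of the 8 B cell markers looked up, 7 were measured, with group means between 7.88 for CD22 and 13.05 for MS4A1 on the log2 scale. The T cell genes CD3D and CD3G were also bright, with group means of 8.09 to 9.04 and 9.80 to 10.57, while CD3E stayed between 4.22 and 4.64. CD3D was at -0.95 with EED226 at day 6, the 1 called by the limma test of 8 T and NK cell markers (adjusted p = 0.000298). The summed log2 level of these 8 at day 6 was 38.8 to 40.0 with EED226 and 40.7 to 41.8 with DMSO. EPCAM, an epithelial marker, lay between 2.16 and 2.45, and PECAM1, an endothelial marker that leukocytes also carry, between 4.61 and 9.50. PECAM1 moved with EED226, at 0.81, 2.16, 3.35 and 4.15 above DMSO at days 1, 2, 3 and 6 (adjusted p = 0.0150, 1.97e-10, 3.62e-15 and 4.02e-18), and was the 1 gene of 8 epithelial, endothelial and stromal markers that was higher by the test. The summed log2 level of those 8 was 32.9 to 33.8 with DMSO and 33.9 to 34.3 with EED226 at day 1, and 33.3 to 37.1 and 36.9 to 37.3 at day 6. LYZ, lysozyme, was likewise the 1 of 7 measured myeloid markers that was higher, by 1.33 at day 3 and 2.28 at day 6 (adjusted p = 2.20e-05 and 2.50e-10), while the sums of those 7 overlapped between treatments at day 6. Of the same 7, 3 were lower at day 6, ITGAM at -0.50, S100A8 at -0.47 and CD163 at -0.39 (adjusted p = 0.00341, 0.00402 and 0.0391). COL1A1, 1 of the 8 epithelial, endothelial and stromal markers, was lower too, at -0.80 (adjusted p = 0.000785). The part of these markers in the members' differences was not tested.

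PRC2 places a repressive methyl mark on histones, and genes under it can become active once the complex is inhibited and the mark is diluted by cell division. EED recognises that mark and stimulates EZH2, the catalytic subunit, so a compound in the EED pocket acts on the enzyme from a distance. The 6 genes belong to unrelated families. ECI2 is an enoyl-CoA isomerase that helps to break down unsaturated fatty acids. ABAT is the mitochondrial transaminase that degrades the neurotransmitter GABA. SERPINE2, also called protease nexin 1, is a secreted inhibitor of thrombin, urokinase and other serine proteases. RIN2 activates the small GTPase RAB5 on early endosomes. HEPACAM2 is a membrane protein of the immunoglobulin superfamily. ADD3 is gamma adducin, which caps actin filaments and joins them to spectrin under the plasma membrane.

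The start regions of these genes are shown first, because CpG-rich promoters are a common place of Polycomb binding and because an interferon-responsive gene often carries a recognisable element there. RefSeq windows of GRCh38.p14, running from 250 bases before to 50 bases after an annotated start, were found for 5 of the 6 members, in 13 windows. The stretches below lie before the outermost annotated start, are read 5′ to 3′ on the gene's strand, and have each CpG in capitals. ECI2 (chr6:4135576-4135825, minus strand, 250 bases, 23 CpG), ABAT (chr16:8674367-8674616, plus strand, 250 bases, 24 CpG), HEPACAM2 (chr7:93232286-93232448, minus strand, 163 bases, 6 CpG) and ADD3 (chr10:109996123-109996372, plus strand, 250 bases, 2 CpG) are shown. For HEPACAM2 the 87 bases nearest the start were left out, as they lie within the annotated gene, so its count covers fewer bases than the others.
ECI2: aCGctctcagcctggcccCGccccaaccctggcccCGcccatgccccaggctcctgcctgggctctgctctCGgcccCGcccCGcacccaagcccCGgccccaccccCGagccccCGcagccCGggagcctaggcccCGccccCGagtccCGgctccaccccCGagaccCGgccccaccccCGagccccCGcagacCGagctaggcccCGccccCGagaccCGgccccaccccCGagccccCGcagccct
ABAT: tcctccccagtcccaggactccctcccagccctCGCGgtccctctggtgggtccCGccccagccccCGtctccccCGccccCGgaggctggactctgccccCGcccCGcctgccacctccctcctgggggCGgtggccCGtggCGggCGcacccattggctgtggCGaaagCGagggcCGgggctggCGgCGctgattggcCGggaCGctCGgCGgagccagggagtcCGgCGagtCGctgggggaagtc
HEPACAM2: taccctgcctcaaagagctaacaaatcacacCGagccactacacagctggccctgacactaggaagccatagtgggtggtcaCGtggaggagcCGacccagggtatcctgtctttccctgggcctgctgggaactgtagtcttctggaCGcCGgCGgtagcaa
ADD3: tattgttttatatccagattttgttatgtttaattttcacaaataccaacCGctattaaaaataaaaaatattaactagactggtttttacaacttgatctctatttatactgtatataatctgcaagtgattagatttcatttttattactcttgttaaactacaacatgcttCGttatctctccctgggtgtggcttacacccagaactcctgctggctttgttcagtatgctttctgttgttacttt
The ECI2 and ABAT stretches are dense in capitals and the ADD3 stretch holds nearly none. ADD3 has another annotated start, with a window at chr10:110007734-110008033 that held 33 CpG.

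Counted over whole windows of 300 bases, the richest window of each gene held 34 CpG for ECI2, 33 for ADD3, 32 for ABAT, 31 for SERPINE2 and 13 for HEPACAM2. The median over 35116 windows of 27305 genes was 14. The percentages of all windows with fewer CpG were 84.4%, 82.8%, 81.1%, 79.3% and 48.3% in the same order. Taking the richest of several windows raises such percentages. The other windows held 28 CpG for ECI2, 8 for SERPINE2, and 4, 12 and 13 for ABAT. HEPACAM2 had another with 3, and the others of ADD3 held 2 each. Some windows of the members thus lay above the median and others below it. The core of the interferon-stimulated response element, searched on both strands as GAAA, any 2 bases, and GAAA again, was in 0 of the 13 member windows. It was in 3.57% of all windows and in 24 of 41 windows (58.5%) of the interferon response genes followed below. These letters being missing from the windows says nothing about any factor's binding elsewhere.

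Common promoter motifs were searched on both strands too. The CCAAT box was in 5 of the 13 member windows and in 34.61% of all windows. The GC box, GGGCGG, was in 6 of them and in 44.95% of all. The E-box, CACGTG, was in 2 of them and in 7.26% of all. In SERPINE2 the CCAAT box occurred in many copies. The window at chr2:224031429-224031728 on the minus strand, at an inner start of the gene, held 7 copies, and 8 windows of the 35116 (0.023%) held at least as many, this one included. Part of them lie in a repeat of 17 bases present 3 times, shown with its CCAAT in capitals.
SERPINE2 repeat: taCCAATggctgtgggc
The repeat was noticed after the sequence had been seen, and no binding was measured in this study.

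With EED226, the brightest probe set of every member was higher than with DMSO at days 2, 3 and 6, with no overlap between the 3 EED226 and the 3 DMSO arrays. A probe set is called past 2-fold here when its difference was at least 1 on the log2 scale and its groups did not overlap, and the first time at which this held is called its onset. Of the 13 member probe sets, 3 were past 2-fold at day 1, 10 at day 2, 11 at day 3 and 12 at day 6. Over all probe sets the share past 2-fold was 0.0421%, 0.767%, 1.76% and 6.96% at these times. Since the members were chosen on this contrast, nothing follows from those counts. Onset was day 1 for ECI2, SERPINE2 and ABAT and day 2 for RIN2, HEPACAM2 and ADD3, each by its brightest probe set. The word early therefore covers 2 different times, and the probe sets nearest the limit at day 1 were 209460_at of ABAT with 0.96 and 209684_at of RIN2 with 0.93, just below it.

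**Figure D1:**
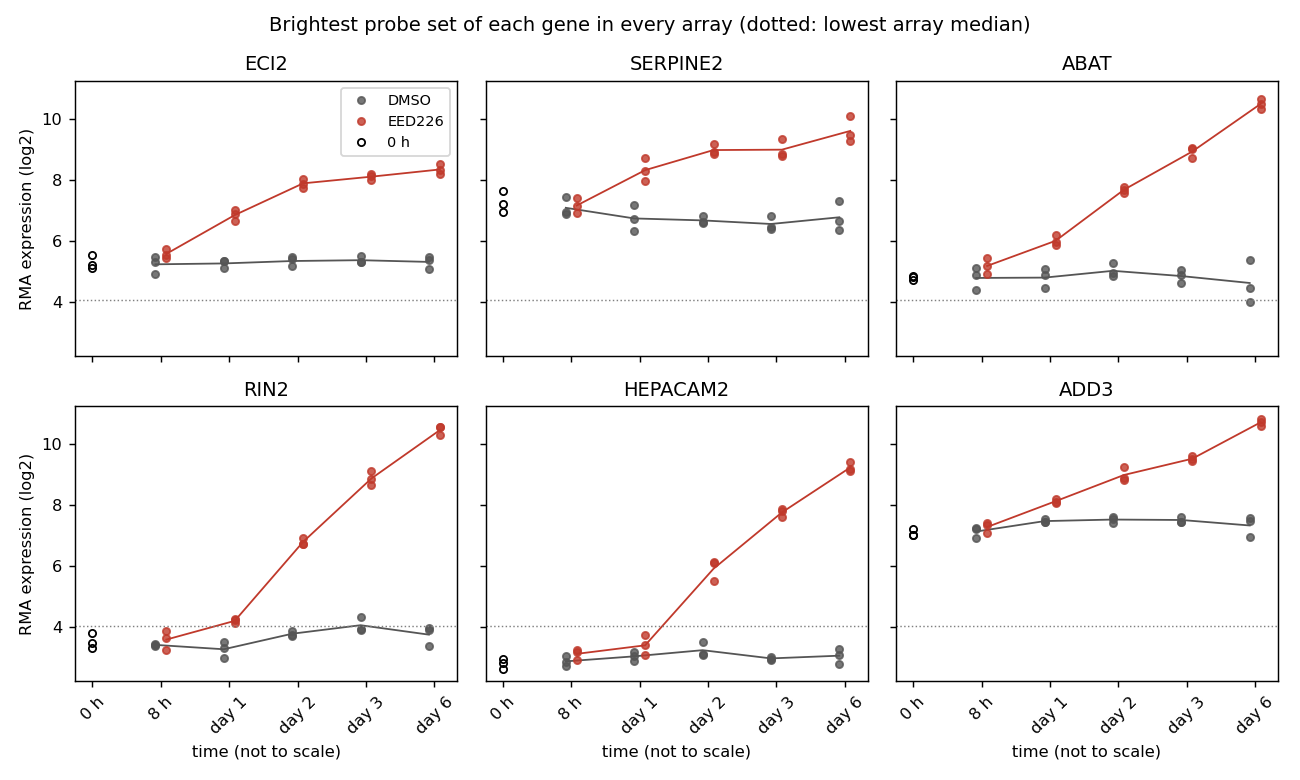
RMA expression (log2, vertical axis) of the brightest probe set of each gene on all 33 arrays, by time of collection (horizontal axis, not to scale); points are arrays, lines join group means, grey is DMSO, red is EED226, open circles are 0 h, and the dotted line is the lowest array median, 4.06. The EED226 points of ECI2 and SERPINE2 separate from DMSO at day 1 and flatten, while those of ABAT, RIN2, HEPACAM2 and ADD3 climb to day 6.

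ECI2 was measured by the single probe set 218025_s_at. On the EED226 arrays its log2 values were 5.74, 5.44 and 5.55 at 8 h, 7.0, 6.89 and 6.65 at day 1, 7.88, 8.04 and 7.74 at day 2, 8.11, 8.20 and 8.0 at day 3 and 8.18, 8.51 and 8.33 at day 6. On the DMSO arrays they were 5.35, 5.34 and 5.10 at day 1 and 5.37, 5.48 and 5.08 at day 6, and all 18 arrays without EED226 lay between 4.92 and 5.54. The enzyme's transcript was thus clear of every untreated array from day 1 on, and the EED226 arrays of days 2 and 3, and of days 3 and 6, overlapped each other. The difference from DMSO was 1.58 ± 0.14 (SE, n = 3) at day 1, or 2.99-fold, then 2.54 at day 2, 2.73 at day 3 and 3.03 at day 6, or 8.14-fold. At day 1 this was the largest difference among the brightest probe sets of the 19775 genes. ECI2 was chosen on this contrast, so nothing is read from that rank. Of the day 6 difference on the log2 scale, 52.3% was present at day 1 and 84.0% at day 2.

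ABAT, the other metabolic enzyme, had 3 probe sets with different sizes of the same change. Its brightest, 209459_s_at, read 5.17, 5.45 and 4.92 on the EED226 arrays at 8 h, 5.96, 6.19 and 5.86 at day 1, 7.57, 7.77 and 7.68 at day 2, 9.05, 8.72 and 9.0 at day 3 and 10.30, 10.65 and 10.50 at day 6. The DMSO arrays read 4.88, 5.07 and 4.45 at day 1 and 4.47, 5.39 and 4.01 at day 6, and all arrays without EED226 lay between 4.01 and 5.39. Each EED226 group from day 1 on lay above the one before it without overlap. The difference was 1.20 ± 0.23 at day 1, 2.65 at day 2, 4.08 at day 3 and 5.86 at day 6, which is 58.1-fold. Probe set 209460_at followed it at 0.96, 1.90, 3.35 and 5.09. Probe set 206527_at, at 3.29 to 4.05 without EED226, gave 0.09, 0.65, 1.07 and 1.72 and reached its onset only at day 3. The direction was the same in all of them from day 1, but onset fell on day 1, 2 or 3 depending on the probe set.

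The 2 probe sets of SERPINE2 disagreed, as did the 2 of RIN2 described below. The brightest, 212190_at, read 6.92, 7.16 and 7.40 on the EED226 arrays at 8 h, 7.97, 8.27 and 8.70 at day 1, 8.84, 8.92 and 9.16 at day 2, 8.78, 8.85 and 9.33 at day 3 and 9.26, 9.46 and 10.07 at day 6. The DMSO arrays read 6.32, 6.72 and 7.16 at day 1 and 6.36, 6.66 and 7.30 at day 6. The EED226 arrays were above all DMSO arrays of the same day from day 1, with overlap between the EED226 groups of days 2 and 3 and of days 3 and 6. The difference was 1.58 ± 0.24 at day 1, 2.30 at day 2, 2.43 at day 3 and 2.83 at day 6, or 7.09-fold. The other probe set, 227487_s_at, stayed between 2.18 and 2.87 on all 33 arrays, below every array's median. Its differences were 0.15, -0.03, -0.03 and -0.01, and its groups overlapped at each time, so the higher level of this protease inhibitor's transcript rests on 1 probe set.

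In 212190_at the arrays carrying replicate number 3 were the highest of their group in 11 of 11 groups, at 0 h, with DMSO and with EED226. In 3 ADD3 probe sets (201752_s_at, 201753_s_at and 205882_x_at) the arrays numbered 3 were the lowest in 10 of 11 groups. The SD of SERPINE2 at day 6 was 0.42 with EED226 and 0.48 with DMSO, and within each replicate number the EED226 array was the higher one from day 1 on.

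RIN2, the RAB5 activator, started below the array medians. Probe set 209684_at read 3.89, 3.65 and 3.26 on the EED226 arrays at 8 h, 4.27, 4.14 and 4.23 at day 1, 6.74, 6.73 and 6.93 at day 2, 8.85, 8.65 and 9.13 at day 3 and 10.55, 10.54 and 10.28 at day 6. The DMSO arrays read 3.33, 3.01 and 3.51 at day 1 and 3.91, 4.0 and 3.38 at day 6, and no array without EED226 exceeded 4.33. The EED226 groups rank by time without overlap from day 1 to day 6. The difference was 0.93 ± 0.16 at day 1, 3.01 at day 2, 4.80 at day 3 and 6.69 at day 6. The day 6 value, 104-fold on the deposited scale, was the largest of the 6 genes, and day 2 was the largest difference among the brightest probe sets of all genes at that time. Since the DMSO values are near the bottom of the scale, where array readings flatten, such a fold describes the arrays rather than transcript numbers. RIN2 was chosen on this contrast too, so nothing is read from its ranks.

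The second RIN2 probe set, 233811_at, read 2.43 to 3.02 without EED226 and went the other way at first. All 3 EED226 arrays lay below the 3 DMSO arrays at days 1 and 2, by 0.13 and 0.16, each within 1 SE of 0.17. It was higher by 0.49 at day 3 and by 1.28 at day 6, where the EED226 arrays read 3.50, 4.58 and 4.31. Its onset was day 6, against day 2 for the brighter probe set.

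HEPACAM2, the adhesion protein, had the probe set 242601_at and the steepest climb of the 6 genes between days 1 and 3. The EED226 arrays read 3.21, 3.26 and 2.93 at 8 h, 3.09, 3.74 and 3.41 at day 1, 5.51, 6.14 and 6.11 at day 2, 7.79, 7.61 and 7.88 at day 3 and 9.40, 9.12 and 9.18 at day 6. The DMSO arrays read 3.06, 3.20 and 2.89 at day 1 and 3.30, 3.11 and 2.81 at day 6, and the arrays without EED226 lay between 2.64 and 3.52. At day 1 the treatments overlapped, and from day 2 on they were far apart. The difference was 0.36 ± 0.16 at day 1, 2.66 at day 2, 4.78 at day 3 and 6.16 at day 6. This gene, too, began in the flat low range, so its 71.4-fold difference at day 6 carries the limit given for RIN2.

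ADD3, the cytoskeletal member, had 4 probe sets that gave like differences. Probe set 201034_at read 7.40, 7.35 and 7.10 on the EED226 arrays at 8 h, 8.11, 8.20 and 8.08 at day 1, 8.82, 9.25 and 8.90 at day 2, 9.60, 9.51 and 9.45 at day 3 and 10.73, 10.82 and 10.58 at day 6. The DMSO arrays read 7.55, 7.43 and 7.45 at day 1 and 7.47, 7.58 and 6.95 at day 6. The EED226 arrays lay above DMSO from day 1 and the EED226 groups rank by time without overlap. The difference was 0.65 ± 0.13 at day 1, 1.46 at day 2, 2.01 at day 3 and 3.38 at day 6, or 10.4-fold. The other 3 probe sets gave 0.60 to 0.70 at day 1 and 3.26 to 3.73 at day 6, and all of them had their onset at day 2. At day 1 the groups of 201752_s_at overlapped.

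**Figure D2:**
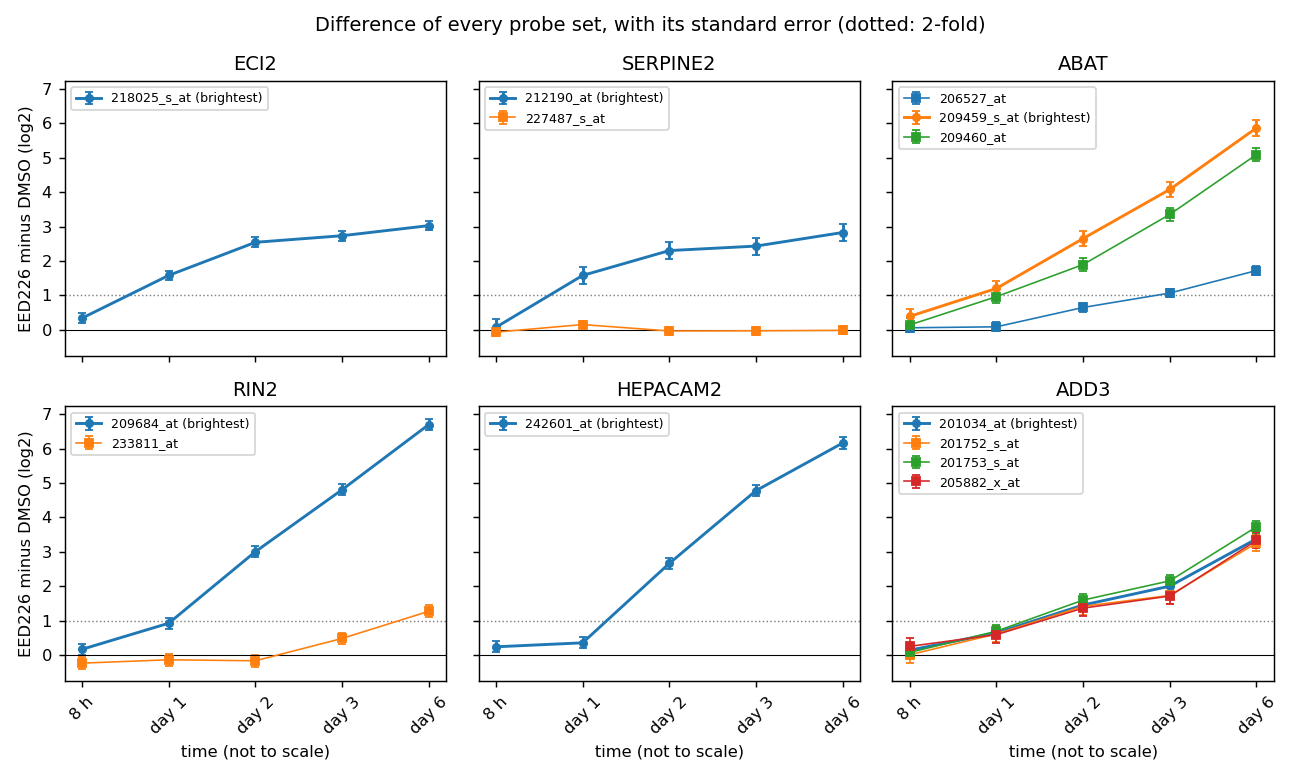
Difference between EED226 and DMSO (log2, vertical axis) for all 13 probe sets by time (horizontal axis, not to scale); bars are standard errors from the fit over 33 arrays, circles mark the brightest probe set of a gene, squares the others, and the dotted line is 2-fold. The ADD3 probe sets run together, SERPINE2 227487_s_at stays at 0, and RIN2 233811_at leaves 0 only at day 3.

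DMSO day 6 replicate 3 stood apart from the other arrays, with the lowest correlation within a group, 0.986, where the highest pair reached 0.997, and with the lowest 75th percentile, 6.10. Without it the day 6 differences of the brightest probe sets were 2.91 for ECI2, 3.09 for SERPINE2, 5.56 for ABAT, 6.50 for RIN2, 6.03 for HEPACAM2 and 3.19 for ADD3. All 12 probe sets past 2-fold at day 6 stayed so. A measure of RNA quality moved with treatment, and not at day 6 alone. For ACTB, the log2 value of the 3′ control probe set minus that of the 5′ control was 3.50, 4.07 and 4.14 on the EED226 day 6 arrays and 2.87, 3.26 and 3.29 on the DMSO ones. At day 3 it was 3.26, 3.34 and 3.74 against 3.05, 3.08 and 3.16, and at day 2 the treatments overlapped. The same measure for GAPDH was 0.28 to 0.37 against 0.24 to 0.26 at day 2. It was 0.30 to 0.44 against 0.23 to 0.24 at day 3, and 0.52 to 0.74 against 0.24 to 0.29 at day 6. With the ACTB measure as a covariate, an alternative chosen after the data had been seen, the counts past 2-fold were 3, 10, 10 and 12, and the SERPINE2 difference at day 6 was 2.00 in place of 2.83.

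The members differed in when the change happened. The slope, the change of the EED226 minus DMSO difference per day, was largest between 8 h and day 1 for ECI2, at 1.86 ± 0.30 log2 units per day, and for SERPINE2, at 2.26 ± 0.52. It dropped in both to 0.96 and 0.72 between days 1 and 2, and to 0.10 and 0.13 between days 3 and 6. HEPACAM2 had 0.17 ± 0.35 in the first interval and 2.30 ± 0.23 and 2.11 ± 0.23 in the next ones. RIN2 had 1.14, 2.08 and 1.80, then 0.63 between days 3 and 6. ABAT kept 1.22, 1.45 and 1.42 before 0.60, and ADD3 was the most even, with 0.75, 0.81, 0.55 and 0.46. The 3 ABAT slopes before day 3 lay within 1 SE of each other.

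**Figure D3:**
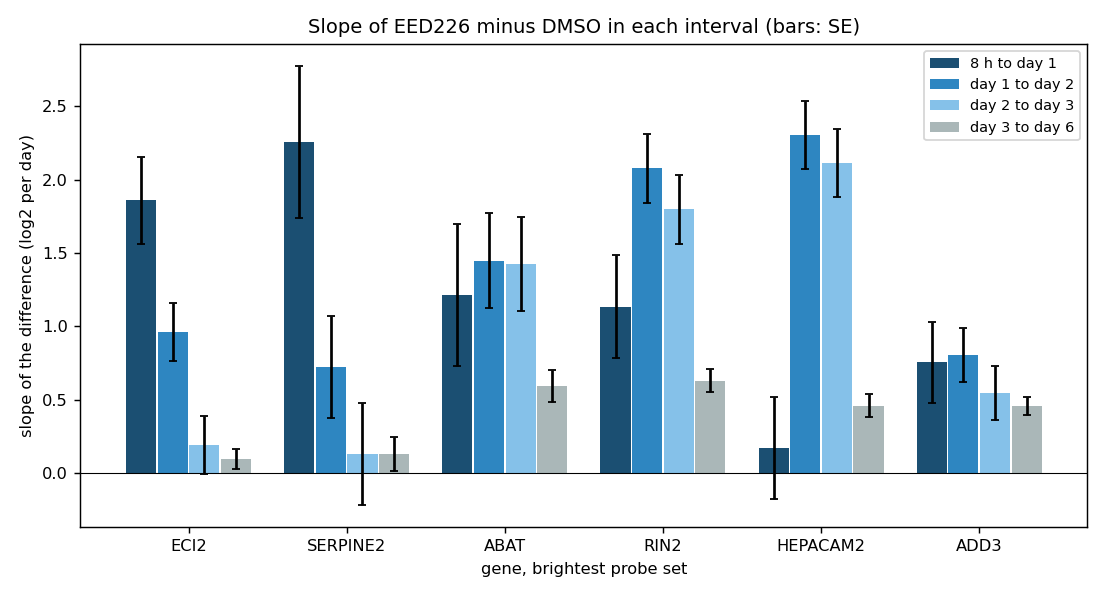
Slope of the EED226 minus DMSO difference (log2 per day, vertical axis) for the brightest probe set of each gene in the 4 intervals between collection times; bars carry standard errors, and the axis includes 0. ECI2 and SERPINE2 have their highest bar before day 1, HEPACAM2 and RIN2 between days 1 and 3.

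Expressed as a share of each gene's own day 6 log2 difference, SERPINE2 had 55.9% at day 1 and 81.4% at day 2, close to the shares of ECI2. ABAT had 20.5% and 45.2%, ADD3 19.3% and 43.2%, RIN2 13.9% and 44.9%, and HEPACAM2 5.86% and 43.3%. By day 3 the shares ran from 59.4% for ADD3 to 90.3% for ECI2. Among all 1590 genes past 2-fold at day 6 by their brightest probe set, the median shares were 11%, 29.0% and 44.6% at days 1, 2 and 3. For 34 interferon response genes past 2-fold at day 6 the medians were 14.3%, 57.7% and 85.4%, and their highest share at day 1 was 23.8%. These shares come from the contrast that chose the members, so no order of the groups is read from them.

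The interferon response genes, a list of 38 that includes IFIT, OAS and MX members, were followed because the members were named as lacking that link. Of 36 measured, 0 passed the limma test at day 1 (adjusted p under 0.05 over all probe sets). Of all genes 0.496% were called higher there and 0.0101% lower. At an unadjusted p under 0.05 there were 23 of the 36, against 1312 of all 19775 genes. At day 2, 34 of the 36 rose, against 5.72% of genes higher and 1.47% lower. At day 3 and at day 6 it was 35, against 10.6% and 23.1% of genes higher and 9.59% and 25.5% lower, and 0 of the list fell at any of these times. The median differences were 0.32, 1.35, 2.17 and 2.45, against -0.01, -0.03, -0.02 and -0.11 over all genes. IFIH1, a sensor of viral RNA, rose by 6.70 ± 0.17 at day 6, IFI27 by 5.99 ± 0.28 and RSAD2, the antiviral enzyme viperin, by 5.37 ± 0.24. By the 2-fold limit used for the members, 0 of the 36 were past it at day 1 and 25 at day 2. The members were chosen on this same contrast, so nothing is read from their earlier or later onset beside these genes. Whether any member responds to interferon was not tested in this study.

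At 8 h, which the choice of members did not use, no member passed the test between EED226 and DMSO. Of the 13 probe sets, 0 passed the limma test, with or without the replicate number as a block, and over all 54613 probe sets 0 passed as well (0%). At an unadjusted p under 0.05 there were 1289 probe sets in all and 1 among the members. That one was ECI2, with 0.34 ± 0.14 (95% interval 0.06 to 0.63, adjusted p = 1.00), where the EED226 arrays read 5.74, 5.44 and 5.55 and the DMSO arrays 5.31, 5.47 and 4.92, with overlap. The interval of ABAT 209459_s_at ran from -0.07 to 0.86, and that of SERPINE2 212190_at from -0.43 to 0.58. With the replicate number as a block, 1552 probe sets had an unadjusted p under 0.05. Of the members, 2 did, ECI2 and ABAT 209459_s_at. The block also lowered the SE of SERPINE2 212190_at from 0.24 to 0.10. The groups of ABAT 206527_at did not overlap, at a difference of 0.06. In the brightest probe sets, the day 1 difference lay above the 8 h interval for ECI2, ABAT, SERPINE2, RIN2 and ADD3. For HEPACAM2 it lay inside, at 0.36 against -0.09 to 0.58. It also lay inside for some dimmer probe sets, such as ABAT 206527_at, at 0.09 against -0.20 to 0.33. The choice of members used the day 1 differences, so no time of onset is read from this comparison.

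Time in culture with DMSO was read against 0 h. There, 0 of the 13 probe sets passed the limma test at 8 h, day 1, day 2, day 3 or day 6, where 0%, 0.0916%, 0.419%, 1.65% and 0.795% of all probe sets did. At an unadjusted p under 0.05 there were 0, 3, 4, 6 and 0 of them. No share of all probe sets at that threshold is given here, so no excess is read from these counts. The count of 0 did not hold in every fit. Without DMSO day 6 replicate 3, ADD3 201034_at passed at day 2 (adjusted p = 0.0496) and day 3 (adjusted p = 0.0276) and 201753_s_at at day 3 (adjusted p = 0.0169), and with array weights 1, 3 and 3 member probe sets passed at days 2, 3 and 6. With the replicate number as a block, SERPINE2 212190_at passed at days 1, 2, 3 and 6 (adjusted p = 0.0285, 0.00303, 0.000131 and 0.0110). Same-numbered arrays did not always deviate together in these comparisons. All 5 comparisons share the 3 arrays at 0 h, and each shares its DMSO arrays with the EED226 comparison of that time. The lowest difference was that of SERPINE2 212190_at at day 3, -0.70 ± 0.24 (adjusted p = 0.184), from 6.95, 7.20 and 7.62 at 0 h to 6.40, 6.46 and 6.81, groups that do not overlap. At days 1, 2 and 6 it was -0.52, -0.58 and -0.48. ADD3 went the other way, with 201034_at at 0.39, 0.44, 0.43 and 0.25 at days 1, 2, 3 and 6, and RIN2 209684_at was at 0.53 at day 3 (adjusted p = 0.115). SERPINE2 values against 0 h at day 6 would therefore give a smaller difference than against DMSO, and those of ADD3 a larger one.

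The relatives of each member show whether its family moved with it. Over 6 lists of family and pathway genes, with the members left out and each gene read by its brightest probe set, 93 genes were measured, and 0, 1, 10, 20 and 45 passed the limma test at 8 h and at days 1, 2, 3 and 6. At 8 h, 3 of the 93 had an unadjusted p under 0.05, beside 369 of all 19775 genes. The shares higher and lower were 1.08% and 0% at day 1, beside 0.496% and 0.0101% of all genes, 10.8% and 0% at day 2, beside 5.72% and 1.47%, and 14% and 7.53% at day 3, beside 10.6% and 9.59%. At day 6, 29 were higher and 16 lower, or 31.2% and 17.2%, beside the 23.1% and 25.5% of all genes. With only the arrays compared in the fit, 28 passed at day 6. The gene that passed at day 1 was CD58, an adhesion ligand named here after its value was seen, with 0.95 ± 0.21 (adjusted p = 0.0449). No family gene passed at day 1 with the arrays centred on their medians, nor in 5 of the 7 fits that left out 1 array, those without DMSO day 1 replicate 1 or 3 or without any 1 EED226 day 1 array, and 3 passed without DMSO day 6 replicate 3. Same-numbered arrays deviated together at day 1, and a fit with that number as a block called 3 genes at that time. One of these was SPTBN1, at 0.92 (adjusted p = 0.00128 with the block).

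**Figure D4:**
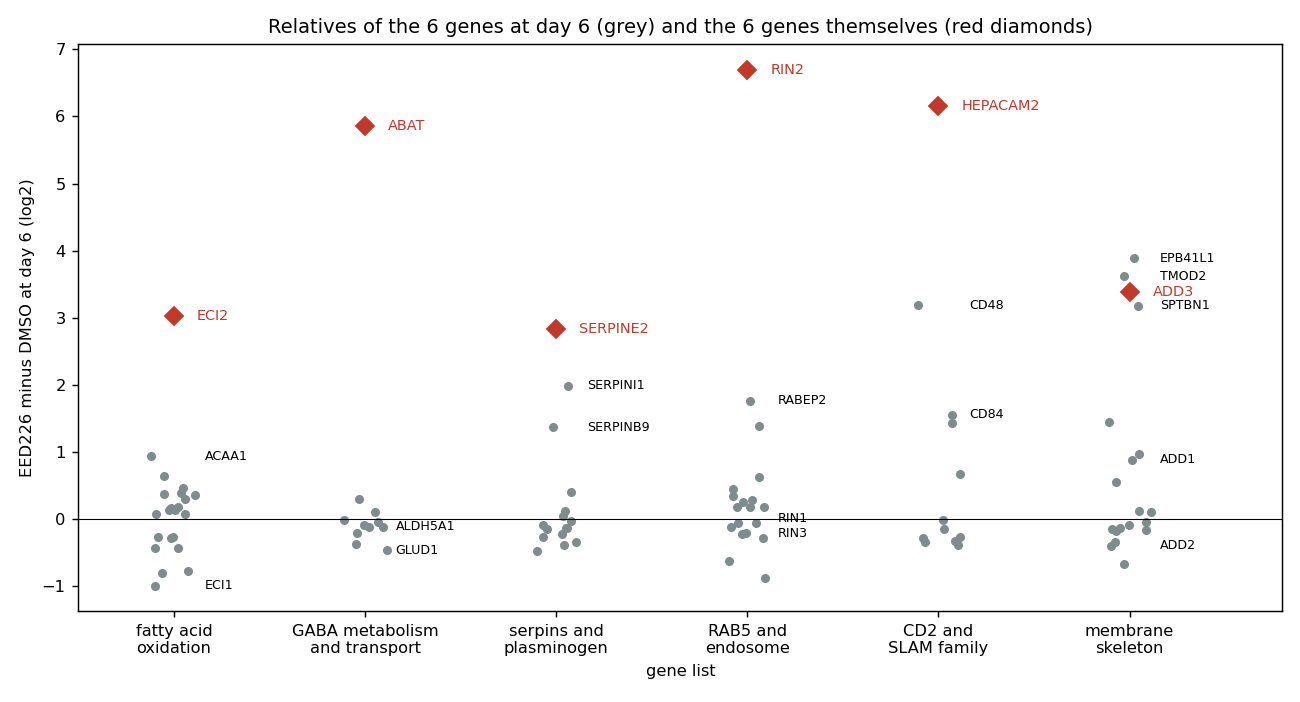
Difference between EED226 and DMSO at day 6 (log2, vertical axis) for the 93 measured genes of the 6 lists (grey points, each the brightest probe set of a gene) and for the 6 members (red diamonds), by list; sideways position within a list has no meaning. In 5 lists the member is the highest point, and in the membrane skeleton list EPB41L1, at 3.89, and TMOD2, at 3.62, lie above ADD3, at 3.38. The members were chosen on EED226 against DMSO and their relatives were not, so nothing is read from these ranks.

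In fatty acid oxidation, the pathway of ECI2, 21 of 23 genes were measured. At day 6, 7 rose and 7 fell, beside 23.1% and 25.5% of all genes, with a median difference of 0.14. ECI1, the mitochondrial isomerase that does the same chemistry, was 0.04 at day 1 and fell by 0.99 ± 0.11 at day 6 (adjusted p = 1.14e-08), from 7.87 ± 0.28 to 6.88 ± 0.12 (SD, n = 3). ECI1 thus moved in the opposite direction to ECI2, which was chosen for its rise. HADH and ACAA2, enzymes of the mitochondrial cycle, fell by 0.81 and 0.78, and ACAA1, a thiolase of peroxisomes, rose by 0.94. At day 2, 2 of the list rose (ACAA1 by 0.33 and ABCD3, a peroxisomal transporter, by 0.51), beside 5.72% of all genes. At day 3, 3 rose and 3 fell, beside 10.6% and 9.59% of all genes.

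In GABA metabolism and transport, the pathway of ABAT, 10 of 12 genes were measured. At day 6, where 23.1% of all genes were higher and 25.5% lower, 1 of the 10 passed the test. That was GLUD1, glutamate dehydrogenase, which fell by 0.47 ± 0.08. ALDH5A1, which acts directly after ABAT in GABA breakdown, was at 9.38 ± 0.10 with EED226 and 9.49 ± 0.10 with DMSO, a difference of -0.11 (95% interval -0.31 to 0.09). The median of the list was -0.10. The highest difference among the measured genes of the pathway was 0.29, beside 5.86, or 58.1-fold, for ABAT. ABAT was chosen on this contrast and these genes were not, so nothing is read from that gap.

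Among serpins and genes of plasminogen activation, 15 of 19 were measured. At day 6, 3 rose and 2 fell, beside 23.1% and 25.5% of all genes, and the median was -0.13. SERPINI1, neuroserpin, rose by 1.99 ± 0.18 from a DMSO mean of 2.92, and had already risen by 0.79 at day 2. SERPINB9, an inhibitor of granzyme B, rose by 1.37 ± 0.42 (adjusted p = 0.0093), and F2, prothrombin, fell by 0.48 (adjusted p = 0.00854). Without DMSO day 6 replicate 3 neither passed, at 0.94 (adjusted p = 0.0973) and -0.24 (adjusted p = 0.145), and without EED226 day 6 replicate 1 SERPINB9 did not (adjusted p = 0.0602). Its dimmer probe sets were at 2.86 (242814_at, adjusted p = 4.37e-06) and 0.13 (209722_s_at, adjusted p = 0.720).

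Among RAB5 regulators and early endosome genes, 18 of 20 were measured. At day 6, 8 rose and 3 fell, beside 23.1% and 25.5% of all genes, and the median was 0.18. In their brightest probe sets RIN1, at -0.06 (95% interval -0.29 to 0.16), and RIN3, at -0.21 (-0.54 to 0.11), did not pass the test. Of the other RIN3 probe sets, all dim, 220439_at was lower by the test, at -0.35 (adjusted p = 0.0120), as was 219456_s_at, at -0.34 (adjusted p = 0.0499). RABEP2, a partner of RAB5, rose by 1.76 ± 0.14 and RAB5B itself by 1.38 ± 0.13. RABGEF1, another RAB5 activator, fell by 0.88 ± 0.10 in its brightest probe set, while its other probe set, 228110_x_at, was at 1.24, so its direction is not settled. RABEP2 was also uneven, with other probe sets at 0.32 and -0.12.

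In the immunoglobulin family of CD2 and SLAM proteins, taken as relatives of HEPACAM2, 11 of 12 genes were measured. At day 6, 4 rose and 0 fell, beside 23.1% and 25.5% of all genes, and the median was -0.15. HEPACAM was not analysed here. CD48, a ligand of CD2 family receptors, rose by 3.19 ± 0.18 at day 6, from 4.64 ± 0.12 to 7.83 ± 0.35, and had risen by 1.17 at day 2 and 2.18 at day 3. CD84 and SLAMF6, receptors that bind copies of themselves on other cells, rose by 1.56 and 1.43. CD58, which had passed at day 1, was at 0.67 at day 6.

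In the membrane skeleton, the setting of ADD3, 18 of 20 genes were measured. At day 6, 7 rose and 3 fell, beside 23.1% and 25.5% of all genes, and the median was 0.02. At day 2, 5 of the list had risen, beside 5.72% of all genes. ADD1, alpha adducin, rose by 0.89 ± 0.10 (adjusted p = 4.04e-08), with 2 of its 3 other probe sets at 0.88 and 0.49 and 214726_x_at at -0.57. ADD2, beta adducin, fell by 0.40 ± 0.14 (adjusted p = 0.0233). That call was lost without DMSO day 6 replicate 1 (-0.24), without EED226 day 6 replicate 1 (-0.34) or 3 (-0.37), and with only the arrays compared in the fit (adjusted p = 0.111). EPB41L1, which links spectrin and actin to membrane proteins, rose by 3.89 ± 0.17, TMOD2, a cap of actin filaments, by 3.62 ± 0.26 and SPTBN1, a beta spectrin, by 3.18 ± 0.23. SPTBN1 had 10 other probe sets, whose differences ran from -0.39 to 2.36. The other EPB41L1 probe sets were at 2.66, -0.25 and -0.27 and the other one of TMOD2 at 0.84, so the size of both rests on the probe set read.

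Of 4 core genes of the complex that EED226 acts on, 1 was higher and 3 lower at day 6 by the limma test. Of all genes 23.1% were higher and 25.5% lower. EZH2 fell by 0.78 ± 0.08, SUZ12 by 0.42 ± 0.08 and EED by 0.27 ± 0.06, a call lost with only the arrays compared (adjusted p = 0.0903), while EZH1 rose by 0.85 ± 0.08. A second EED probe set, 210656_at, was at 0.77, and EZH1 had probe sets in both directions.

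Transcripts named after a member were looked up after the annotation had been seen. ECI2-DT, a divergent transcript at ECI2, was at 0.07, 0.06 and 0.11 at days 1, 2 and 3 and at -0.74 ± 0.20 at day 6 (adjusted p = 0.00368). Its DMSO arrays at day 6 read 3.45, 3.28 and 4.63 and its EED226 arrays 3.25, 2.84 and 3.04, so 1 DMSO array stood apart. For ADD3-AS1, antisense to ADD3, 1 of 3 probe sets passed at day 6, 228215_at, at -0.57 ± 0.17 (adjusted p = 0.00906). Without that array, DMSO day 6 replicate 3, neither passed, at -0.32 (adjusted p = 0.0624) and -0.30 (adjusted p = 0.145). Group means of both lay between 2.21 and 3.79, in the dim range of the arrays.

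Genes with the most similar course were found by Pearson correlation of the 11 group means, over 2824 genes whose means span at least 1 log2 unit. The groups share the treatment contrast and the DMSO arrays, so high values are common and are given as a description. Nearest to ECI2 were SOX9 (r = 0.997), SLC25A43 (0.996) and HEBP1 (0.994). Nearest to SERPINE2 were MAP3K20 (0.986), MIR550A3HG (0.980) and ELL2 (0.978), the least close set. ABAT had RAB8B (0.998), TMEM100 (0.998) and MSRB2 (0.997), and RIN2 had TRAPPC6A (0.997), SNN (0.997) and CAVIN2 (0.996). CAVIN2 was also the nearest to HEPACAM2 (0.997), followed by AIM2 (0.996) and ANXA4 (0.996). ADD3 had SCD5 (0.999), SESN3 (0.996) and SDCBP (0.995). Likeness in course is not likeness in size. TMEM100 went from 4.67 with DMSO to 10.94 with EED226 at day 6, while RAB8B, as similar to ABAT, went from 7.83 to 9.96. Between probe sets of 1 member the correlation was -0.10 for SERPINE2 and 0.84 for RIN2.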

How the data were processed

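Expression was measured on 33 Affymetrix arrays of Karpas422 cells, labelled with a 3′ IVT kit from TRIZOL-extracted RNA, per the labels' protocols. The authors deposited 1 log2 value per probe set and array, computed by RMA according to the submitters' processing notes. RMA subtracts background, normalizes arrays by quantiles and summarizes probes. Neither its version nor the set of arrays normalized jointly is given in the sources used here. Medians of the arrays ranged from 4.06 to 4.18, and the number of arrays limits the precision.

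Of 54675 rows, 62 controls were left out. In the platform annotation 41091 probe sets had 1 symbol, 1801 had several and 11721 were not named. Only those with 1 symbol were named, and a gene in a list was read by its brightest probe set over all arrays. As these include EED226 arrays, this can favour probe sets that were higher with EED226. Of the 13 member probe sets, 10 had a mean above the median level of 4.09.

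limma 3.58.1 in R 4.3.3 (lmFit, eBayes) was fitted to all 54613 probe sets, with 1 mean per group leaving 22 residual degrees of freedom. P-values are two-sided, with Benjamini-Hochberg adjustment over all probe sets within a comparison and a threshold of 0.05. The procedure was tested on simulated data. Values with ± are SD for levels and SE for differences. Named genes were the members, PRC2 genes, direct relatives, up to 3 others per family list and 3 interferon genes with the largest day 6 differences, and the 3 nearest courses per member. Members and lists were chosen with earlier results of these data known.

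Same-numbered arrays deviated together for EED226 against DMSO at 8 h (correlations 0.167 to 0.332), day 1 (0.175 to 0.373) and day 2 (0.141 to 0.194). The pairing there comes from these correlations, since the labels give only the numbers. Promoter windows are from RefSeq, GRCh38.p14. Alternatives were other scalings, array weights, a filter on dim probe sets, 1 probe set per gene, fewer arrays, the replicate block, each array left out and, added later, an RNA quality covariate.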

Additional observations from a re-analysis of the deposited data

Results flagged for a closer look

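The response of relatives changed between times, by a limma test of the difference itself, adjusted over all probe sets. For ECI1, the isomerase related to ECI2, the EED226 minus DMSO difference at day 6 minus that at day 1 was -1.03 (SE 0.15, adjusted p = 4.61e-06). For ADD1, alpha adducin, it was 0.75 (SE 0.15, adjusted p = 0.000215). For ALDH5A1, RIN1, RIN3 and ADD2 it did not pass, at -0.22, 0.07, -0.13 and -0.44 (adjusted p = 0.290, 0.820, 0.749 and 0.110). The cause was not tested.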

How the results depend on the processing

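Of the member differences recomputed under the alternatives, 773 stayed within 1 SD, 6 moved by more and 0 changed sign as a called value, and all 6 moves came with the ACTB covariate. Read by 1 probe set per gene, the counts past 2-fold at days 2, 3 and 6 were 6, 6 and 6, by construction, as there are 6 genes. Leaving out 1 array gave 3 to 4, 10, 10 to 11 and 12 probe sets past 2-fold at days 1, 2, 3 and 6, and 0 calls at 8 h. Family genes passing at day 1 numbered 1, and 2 with 1 probe set per gene, 0 with arrays centred, 3 with array weights, 2 with the filter on dim probe sets, 3 with the replicate block, 2 with the ACTB covariate and 0 to 3 without 1 array. Array weights gave 19 in place of 10 at day 2, and only the arrays compared gave 28 in place of 45 at day 6. Leaving out 1 array gave 9 to 12 at day 2, 13 (without DMSO day 3 replicate 1) to 28 at day 3 and 38 to 45 at day 6. Interferon genes at day 1 numbered 0, and 1 with 1 probe set per gene, 2 with array weights, 1 with only the arrays compared and 0 to 1 without 1 array. Later counts were 34 to 35. For DMSO against 0 h, where 0 member probe sets passed, the replicate block gave 1, 2, 4 and 1 at days 1, 2, 3 and 6. SERPINE2 212190_at was among them at each of these times (adjusted p = 0.0285, 0.00303, 0.000131 and 0.0110). Array weights gave 1, 3 and 3 at days 2, 3 and 6, repeated quantile normalization 1 and 1 at days 2 and 3, and the ACTB covariate 1 at day 3. Without DMSO day 6 replicate 3 there were 1 at day 2 and 2 at day 3, all in ADD3. The numbers share no stated source there, and of 6 arrays 5, 6, 3, 4 and 3 correlated best with their own number at 8 h and days 1, 2, 3 and 6. Between EED226 and DMSO it was 6, 6, 6, 4 and 6, with the lowest same-number correlation at days 3 and 6 being 0.013 and 0.068. The block changed no other call of a family or interferon count by over 1.5 times. No called value reversed. The low signal of RIN2, HEPACAM2 and SERPINE2 227487_s_at without EED226 limits how far their differences measure fold.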
